A study of Mus musculus with 12 samples.

Results

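The comparison of 1 week of cold with its controls in white adipose tissue rests on 6 of the 12 arrays of the study, chosen by their titles: 3 arrays of mice held for 1 week at 4 °C (cold) and 3 arrays of control mice of the same week (control). The remaining 6 arrays, cold and control at 5 weeks, entered the model as groups of their own and are used below only to show where 1 week differed from 5 weeks. All animals were male C57/BL6 mice of 6 to 8 weeks of age with no genetic alteration named in the labels, housed at 22 °C and moved to 18 °C for 1 to 3 weeks before the cold. For the controls the titles give 30 °C and the source names give room temperature, so the temperature contrast itself is uncertain. The labels name neither the fat depot nor separate animals behind the 3 arrays of a group, so the p-values speak only of array-to-array spread, part or all of which may be technical. RNA was read on Affymetrix arrays, and the deposited values were log2 signals of 45101 probe sets.

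White adipocytes store triglyceride in 1 large droplet, and in some depots noradrenaline from sympathetic nerves turns part of the tissue into beige fat: cells with many small droplets, many mitochondria and uncoupling protein 1, which lets protons re-enter the mitochondrial matrix without making ATP. The work of such cells needs fuel (fatty acids, glucose, branched-chain amino acids), a respiratory chain, the mitochondrial ribosomes and import machines that build it, and heme and iron for its cytochromes. Fat tissue also holds progenitors, vessels, nerves, macrophages and, near lymph nodes, lymphocytes, so a bulk array reads all of them together. Here, as in any bulk sample, fewer cells of a type and less RNA per cell cannot be told apart.

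Before the comparison, each array was checked for the length of its labelled RNA, for added control transcripts and for muscle. The difference between the 3' and 5' probe sets of Gapdh, which widens when labelled RNA is short at its 5' end, was 0.90, 3.00 and 3.12 log2 units on control arrays 1 to 3 and -0.08, 0.34 and -0.08 on cold arrays 1 to 3. Control arrays 2 and 3 therefore stood apart from control array 1 and from all cold arrays, and the groups did not overlap (mean difference -2.28, 2-sided exact permutation p = 0.1, the smallest that 3 against 3 arrays allow). The same difference for Actb was 1.25, 1.35 and 1.22 in control and 1.33, 1.16 and 1.01 in cold, and these overlapped (exact permutation p = 0.4). For Pcx, pyruvate carboxylase, it was 8.13, 8.24 and 8.09 in control and 6.37, 7.81 and 3.19 in cold. It was lower on every cold array and lowest on cold array 3. The 5' probe set of Pcx was dim in control (4.41, 3.95 and 4.04), which limits what its control differences say of RNA length. For Tfrc, the transferrin receptor, it was 1.63, 2.00 and 1.90 in control and 2.52, 2.40 and 2.55 in cold. Tfrc was thus higher on every cold array, though its 5' probe set was below log2 4 on all controls. These genes did not order the arrays in the same way.

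All 18 probe sets of the added bacterial and phage transcripts (BioB, BioC, BioD and Cre) had their 3 cold arrays above their 3 control arrays. Their mean was 10.66, 10.76 and 10.63 in control and 11.17, 11.43 and 11.32 in cold, a difference of 0.63 log2 units. Skeletal muscle markers, 23 of 28 listed genes bright enough to test, averaged 5.32, 5.54 and 5.22 in control and 5.20, 9.01 and 5.28 in cold. Cold array 2 alone was high in muscle transcripts. The array medians lay between 4.79 and 4.89, and pairwise correlations were 0.994 to 0.996 within control, 0.991 to 0.995 within cold and 0.974 to 0.986 between the groups. The part of 5' signal, spike-in level and muscle content in the gene results was not tested as a cause. Counts without control arrays 2 and 3, with the Gapdh 3' to 5' difference as a covariate, and without cold array 2 are given beside many of the lists below, since the number of called genes moved by over 1.5 times in 33 of 53 lists with the covariate, in 34 without control arrays 2 and 3, and in 2 without cold array 2.

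**Figure D1:**
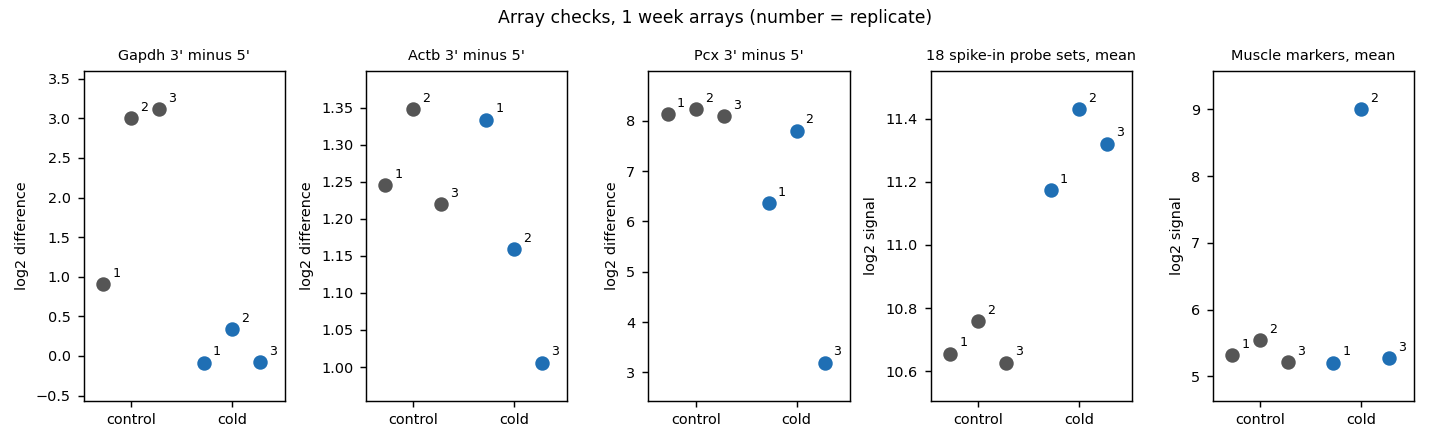
Control probe set and muscle readings of the 6 arrays of 1 week, each point 1 array with its replicate number: log2 difference between the 3' and 5' probe sets of Gapdh, Actb and Pcx, mean log2 signal of 18 spike-in probe sets, and mean log2 signal of 23 muscle markers; the vertical scales differ. Control arrays 2 and 3 lie near 3 for Gapdh, the spike-ins of all cold arrays lie above all controls, and cold array 2 stands at 9.01 in the muscle panel.

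Of 26510 probe sets tested, 11847 were called (44.7% at an adjusted p of 0.05 in limma): 4637 rose (17.5%) and 7210 fell (27.2%). In 7288 (27.5%) the cold arrays all lay above the controls and in 7939 (29.9%) all below. Read as genes, through the brightest probe set of each, 6115 of 12855 were called (47.6%), with 2194 up (17.1%) and 3921 down (30.5%), and the median over all genes was a log2 change of -0.08. Changes of at least 2-fold were found in 516 genes that rose and 819 that fell, and changes of at least 4-fold in 69 that rose and 19 that fell. Cold arrays lay wholly above the controls in 3347 genes (26.0%) and wholly below in 4329 (33.7%). The split depends on how arrays are put on 1 scale. Of the called probe sets 39.1% rose as deposited, 47.6% after quantile normalization, 60.9% with each array centred on its median over tested probe sets (median shift 0.12) and 5.27% with arrays centred on the spike-ins (median shift -0.67); with no filter on dim probe sets it was 54.5%. A total of 473 genes rose and 2782 fell under all 4 scalings. Calls as deposited also varied with the mean signal of a probe set over the 12 arrays. At means up to 5.24, 848 rose and 349 fell, and from 5.24 to 6.58, 775 and 858. From 6.58 to 7.83 the counts were 784 and 1695, from 7.83 to 9.27 915 and 2152, and above 9.27 1315 and 2156. The shares of all genes given beside the lists below are not matched for signal. With the Gapdh difference as a covariate 4893 probe sets were called. There 973 of the rising genes and 1577 of the falling genes kept their call, and none was called in the opposite direction. Changes of sign without a call were not counted. Fewer probe sets were also called without control arrays 2 and 3 together, which left 1 control array. Centred on the spike-ins, 96 genes called as deposited were called in the opposite direction.

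Because calls were this frequent, the genes named first are those with at least 2 probe sets, all called the same way, and the widest gap between the groups on their brightest probe set. Among 5679 genes with several probe sets, all rose in 451 (7.94%), all fell in 542 (9.54%), and in 395 (6.96%) probe sets of 1 gene were called in opposite directions. Acot11, a thioesterase that splits acyl-CoA in brown fat, had the widest rising gap: 7.80, 6.28 and 7.17 in control and 12.68, 12.39 and 12.40 in cold (log2 change 5.40 ± 0.29 SE, adjusted p = 1.5e-06, n = 3 arrays per group as throughout). S100b, a calcium-binding protein released by brown adipocytes, read 5.12, 4.58 and 4.69 against 8.87, 8.38 and 8.52. Plin5, the perilipin that ties lipid droplets to mitochondria, read 7.94, 7.51 and 6.94 against 10.94, 10.84 and 10.97. In all 3 the cold arrays lay close to each other and far above every control.

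The other genes of the rising set included Coq8a (a kinase-like protein of coenzyme Q synthesis), Slc25a20 (the carnitine-acylcarnitine carrier), Pank1 (first step of coenzyme A synthesis), Ldhb (lactate dehydrogenase B), Letm1 (an inner membrane ion exchanger), Acaa2 (thiolase of mitochondrial fatty acid oxidation), Pfkl (phosphofructokinase, liver type), Dlat (pyruvate dehydrogenase E2) and Uqcc1 (assembly of complex III). Slc25a20 read 10.34, 10.01 and 9.82 in control and 12.84, 12.60 and 12.82 in cold (2.70 ± 0.14, adjusted p = 9.0e-07). Acaa2 read 11.44, 10.73 and 11.12 against 13.51, 13.44 and 13.43. Both sets of readings are separated by more than 1 log2 unit with no overlap.

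Lpar4, a receptor for lysophosphatidic acid, had the widest falling gap, with 6.71, 6.79 and 6.89 in control and 4.80, 4.40 and 5.01 in cold (-2.06 ± 0.17, adjusted p = 1.4e-05). Igf1, insulin-like growth factor 1, read 12.64, 12.24 and 12.48 against 10.90, 10.52 and 11.04 and fell on all 4 of its probe sets (-1.63 ± 0.15, adjusted p = 3.0e-05 on the brightest). Nnt, the proton-driven transhydrogenase that makes mitochondrial NADPH, read 10.45, 10.85 and 10.63 against 9.13, 9.19 and 8.88. It fell while most inner membrane genes listed below rose. Several of this set are genes of immune cells: Vav3 and Fyb (signalling below antigen receptors), Cd28 (costimulation of T cells), C2 (complement) and Cybb (the phagocyte oxidase). Cybb read 9.45, 9.35 and 9.76 against 8.11, 7.97 and 8.17, with each cold array below each control.

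**Figure D2:**
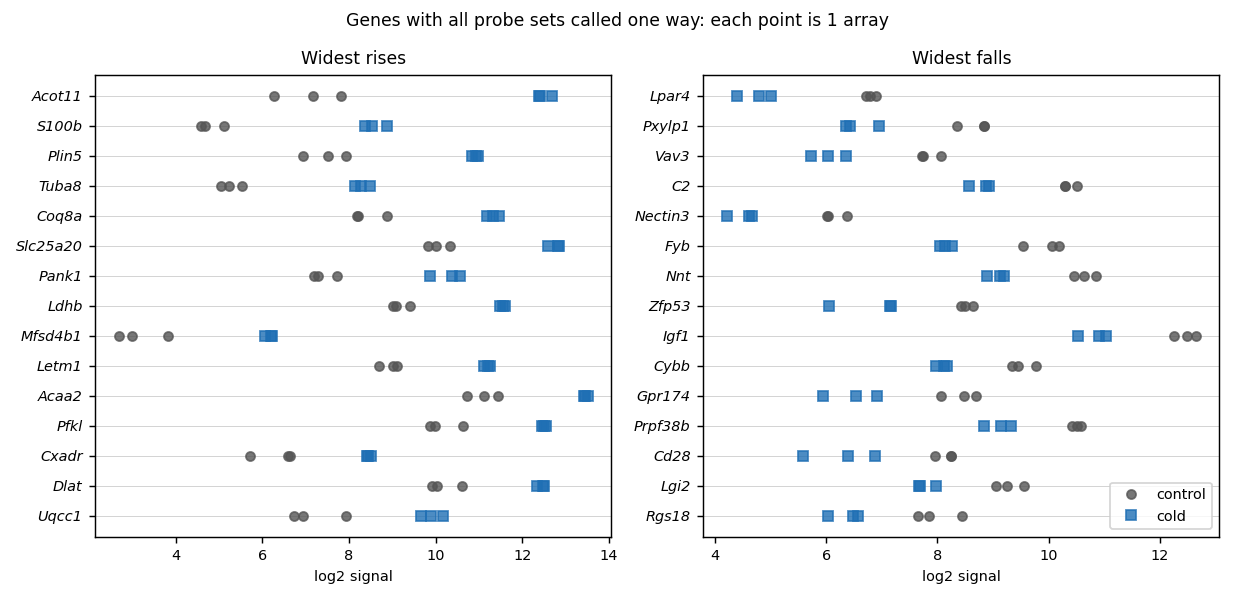
Log2 signals of the 15 rising (left) and 15 falling (right) genes with the widest gap between groups among genes whose probe sets were all called in 1 direction; circles are the 3 control arrays and squares the 3 cold arrays. No cold square reaches a control circle, since the choice of genes required a gap, and Acot11 and Lpar4 head the panels.

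The cAMP response element, the sequence that CREB-type factors bind after beta-adrenergic signals, is 1 DNA element that can be read against these changes, and 3 promoters that hold it are shown because their genes rose and lie in the lists described next. They are RefSeq sequence on the mouse build GRCm38.p6, minus strand, 5′ to 3′, from 250 bases before the start site, with TGACGTCA in capitals. Dio2 lies at chr12:90739039-90739288 with the element starting at base -95, Clstn3 at chr6:124464778-124465034 with the element starting at base -1, and Uqcrfs1 at chr13:30545317-30545566 with the element starting at base -29.
Dio2: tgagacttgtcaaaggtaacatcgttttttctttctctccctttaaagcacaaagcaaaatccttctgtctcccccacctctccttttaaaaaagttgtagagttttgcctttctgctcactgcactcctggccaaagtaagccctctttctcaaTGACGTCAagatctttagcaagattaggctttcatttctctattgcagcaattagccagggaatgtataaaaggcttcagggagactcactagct
Clstn3: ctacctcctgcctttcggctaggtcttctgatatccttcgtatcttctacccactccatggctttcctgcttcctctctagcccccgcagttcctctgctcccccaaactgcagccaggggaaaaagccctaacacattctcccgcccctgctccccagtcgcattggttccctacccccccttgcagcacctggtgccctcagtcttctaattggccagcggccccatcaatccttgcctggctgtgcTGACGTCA
Uqcrfs1: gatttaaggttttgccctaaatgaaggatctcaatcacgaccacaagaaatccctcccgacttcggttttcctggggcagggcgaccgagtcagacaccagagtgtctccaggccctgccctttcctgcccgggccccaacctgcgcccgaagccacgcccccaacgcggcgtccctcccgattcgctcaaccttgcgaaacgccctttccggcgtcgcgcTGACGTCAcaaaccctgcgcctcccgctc

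In windows of 300 bases (250 before and 50 after the start site, both strands), TGACGTCA stood in 2 of the 12 thermogenic effectors that rose and have a promoter in the table (Dio2 and Clstn3; 16.7%) and in 4 of 58 rising respiratory chain subunits (Ndufa10, Ndufb2, Uqcrfs1 and Cycs; 6.90%). The share was 2.03% over all 27025 genes with a promoter, 3.35% over the 10323 tested, 4.31% of rising and 3.15% of falling genes. TGACGTCA stood in 1 of 56 rising mitochondrial ribosomal proteins (1.79%) and in none of 9 rising coenzyme Q synthesis genes. It also stood in 1 of 10 falling DNA replication and mitosis genes. The rising lists thus lay on both sides of the share of tested genes, and a link between the element and the rise was not tested. An exact match to 1 fixed spelling of the NRF1 motif, a palindrome, stood in 4 of the 58 subunits and in 2.20% of tested genes, the estrogen-related receptor motif TCAAGGTCA in 1 (Sdhd) and in 0.358%, the E2F motif TTTCCCGC in none and in 2.22%, and the PPAR direct repeat in none and in 0.0291%. These matches describe letters in a window and not binding.

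All 15 tested thermogenic effectors of 18 listed rose, with a median log2 change of 3.80, and all 15 had their cold arrays above every control (all genes: 17.1% up, 26.0% above). Ucp1, the uncoupling protein, read 7.77, 7.65 and 6.69 in control and 15.14, 14.90 and 15.03 in cold (7.65 ± 0.43, adjusted p = 1.8e-06). Fabp3, a fatty acid binding protein of heart and brown fat, read 7.57, 6.59 and 6.75 against 13.10, 12.46 and 12.63, although its dimmer probe set changed by 0.43 and was not called. Cox7a1, the subunit of complex IV found in muscle and brown fat, read 8.85, 7.37 and 8.41 against 13.54, 13.35 and 13.30. For these 3 genes the lowest cold array stood more than 4 log2 units above the highest control.

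Elovl3, a fatty acid elongase of brown fat, was below log2 4 on control arrays 1 and 2 (2.79 and 2.67), read 4.70 on control array 3, and reached 12.87, 12.08 and 12.84 in cold (adjusted p = 1.5e-06). Dio2, which activates thyroid hormone, was below log2 4 on all controls and read 6.42, 5.70 and 5.07 in cold, at least 3.32-fold higher when control signals are set to log2 4 (adjusted p = 1.0e-04). Clstn3, calsyntenin 3, read 4.69, 4.69 and 4.26 against 8.49, 7.96 and 8.66. Its controls lay above the filter level of log2 4 but below the array medians (4.79 to 4.89), which limits how exactly its change can be read.
Cidea, a lipid droplet protein, was already bright in control, at 11.49, 9.53 and 10.01, and read 14.28, 14.11 and 14.38 in cold (3.91 ± 0.41, adjusted p = 5.2e-05). Otop1, a proton channel, had 1 of the widest ranges within the controls of any gene: 8.12, 5.79 and 7.70, against 11.03, 10.93 and 11.04 in cold. Cidea, Otop1, Cox8b, Ppara and Oplah all had control array 1 as the highest control. This order was common: control array 1 was the highest control in 64.0% of the genes called up against 34.3% of all genes, and the lowest control in 64.1% of the genes called down against 40.9% of all genes. Letmd1, a mitochondrial protein needed for heat production in brown fat, rose by 2.99 ± 0.15 with only small spread in either group (9.12, 8.89 and 8.94 against 11.96, 11.78 and 12.18). Slc27a2, an acyl-CoA synthetase for very long chains, and Kcnk3, a potassium channel, rose by 3.55 ± 0.18 and 1.53 ± 0.21.

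Of the upstream factors, 6 of 24 tested regulators rose (25%) and 3 fell (12.5%), beside 17.1% and 30.5% of all genes. Their median was 0.12 (-0.50 with arrays centred on the spike-ins). Ppargc1a, the coactivator of mitochondrial genes, read 6.42, 6.54 and 6.28 in control and 8.04, 7.90 and 8.23 in cold (1.64 ± 0.16, adjusted p = 4.1e-05), and Ppargc1b rose by 1.63 ± 0.17. Cebpb rose by 1.85 ± 0.23, Ppara, the fatty acid sensing receptor, by 2.09 ± 0.37, and the estrogen-related receptors Esrra and Esrrg by 1.23 ± 0.21 and 1.50 ± 0.40. Foxo1 (-0.58 ± 0.12), Tle3 (-0.56 ± 0.15), a corepressor, and Nrf1 (-0.61 ± 0.18), nuclear respiratory factor 1, fell. For Tle3 2 of 4 probe sets rose and 1 fell, so its direction depends on the probe set. Prdm16, the lineage factor of brown and beige cells, read 6.72, 6.31 and 5.44 against 6.97, 6.39 and 7.23 (0.70 ± 0.35, adjusted p = 0.12), and these ranges overlap. Irf4, induced by cAMP in fat, changed by -0.45 ± 0.23 (adjusted p = 0.14). The calls of Esrrg, Foxo1, Tle3 and Nrf1 were lost with the Gapdh covariate, those of Esrra and Ppara without control arrays 2 and 3, and that of Nrf1 also without cold array 2 alone.

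Of 6 tested classical brown lineage genes 3 rose and none fell, with a median of 0.34 that became -0.29 with arrays centred on the spike-ins. Oplah, which opens oxoproline in glutathione turnover, read 8.40, 7.20 and 6.25 in control and 10.56, 9.85 and 10.20 in cold. Mpzl2 (0.91 ± 0.18), an adhesion protein, and Ebf3 (0.45 ± 0.12) also rose, Ebf3 turning to -0.18 with arrays centred on the spike-ins. Lhx8 read 5.87, 5.47 and 5.90 against 5.08, 5.46 and 5.22 (-0.50 ± 0.22, adjusted p = 0.094). Zic1 and Myf5, defining factors of classical brown fat and its precursors, never exceeded 2.86 and 3.28 on any of the 6 arrays and were not tested. Among 11 beige adipocyte genes 4 rose (36.4%) and 3 fell (27.3%), beside 17.1% and 30.5% of all genes. The rises were led by Slc27a1 (1.85 ± 0.15), a fatty acid transporter, and Car4 (0.89 ± 0.10), carbonic anhydrase 4. Klhl13 (-0.99 ± 0.13) and Cd40 (-1.28 ± 0.24) went the other way.

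Genes that define white adipocytes, most of which brown adipocytes also express, were checked as markers of the labelled tissue. Adipoq, adiponectin, read 14.63 to 14.76 in control and 14.68 to 14.69 in cold (-0.03 ± 0.07, adjusted p = 0.78). Of the 10 tested, 4 rose (40%) and 2 fell (20%), beside 17.1% and 30.5% of all genes (median 0.15). With arrays centred on the spike-ins 2 rose and 5 fell (median -0.48), and with the Gapdh covariate the median was -0.087. The lipases Pnpla2 (1.03 ± 0.20) and Lipe (1.60 ± 0.35), the glucose transporter Slc2a4 (1.33 ± 0.27) and Fabp4 (0.32 ± 0.08) rose, while leptin, Lep, fell from 10.65, 10.24 and 10.24 to 9.86, 9.84 and 9.77 (-0.55 ± 0.16, adjusted p = 0.014) and Pparg fell by 0.27 ± 0.08. Lipe read 11.34 on control array 1, nearest to the cold arrays (12.23, 11.76 and 12.38), 10.22 on control array 2 and slightly less on control array 3 (control mean 10.52). All 6 calls were lost with the Gapdh covariate, and Fabp4 turned to -0.30 with arrays centred on the spike-ins. That value is from the brightest of 4 Fabp4 probe sets, at 15.33 to 15.80 near the top of the signals measured; the next brightest changed by 0.20 (adjusted p = 0.084) and the dimmer ones rose by 1.13 and 1.58. Cidec (0.73 ± 0.31, adjusted p = 0.073), Cebpa (-0.09 ± 0.15, adjusted p = 0.64) and Retn (-0.12 ± 0.09, adjusted p = 0.27) were not called.

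In the adrenergic and cAMP list 7 of 33 tested genes rose (21.2%) and 10 fell (30.3%), near the 17.1% and 30.5% of all genes, with a median of -0.08 that turned to 0.04 after quantile normalization and to 0.08 with median-centred arrays. Adcy3, an adenylyl cyclase, read 8.28, 8.40 and 8.38 in control and 9.39, 9.25 and 9.33 in cold (0.97 ± 0.09, adjusted p = 3.0e-05), and all 4 of its probe sets rose. Akap1, which anchors protein kinase A at mitochondria, rose by 1.12 ± 0.13. Pde4b, a phosphodiesterase that removes cAMP, and Gnai3, an inhibitory G protein, both fell by 0.86 on the log2 scale (SE 0.10 and 0.09).

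Most genes of the respiratory chain rose, with a few exceptions. Of tested subunits, 32 of 33 in complex I (median 0.99), all 14 in complexes II and III with cytochrome c (1.31), 10 of 15 in complex IV (0.72) and 14 of 19 in the ATP synthase (0.76) rose, against 17.1% of all genes; none, none, 2 and 2 fell. With the Gapdh covariate the rising counts were 31, 14, 10 and 12 and none fell. With arrays centred on the spike-ins 17, 10, 5 and 3 rose and 2, none, 3 and 5 fell, so more ATP synthase subunits fell than rose on that scale. Ndufv1, the flavoprotein that takes electrons from NADH, read 11.82, 11.51 and 11.56 in control and 13.10, 13.06 and 13.17 in cold (1.47 ± 0.10, adjusted p = 4.0e-06). Sdhb, an iron-sulfur subunit of complex II, rose by 1.38 ± 0.10. Uqcrfs1, the Rieske protein of complex III, read 12.34, 12.10 and 12.14 against 13.67, 13.61 and 13.80, and Uqcrq rose by 1.63 ± 0.09. These readings were tight within each group and did not overlap, which naming genes by small adjusted p favours.
Cycs (1.05 ± 0.08), cytochrome c, Cox5b (1.05 ± 0.07) and Cox6b1 (1.02 ± 0.08) rose by about the same amount, from control levels above log2 13. Atp5o rose by 1.28 ± 0.11 and Atp5a1 by 1.01 ± 0.09. The members that fell were Cox7c (6.58, 7.19 and 6.80 against 5.10, 5.75 and 6.34), Cox7a2l (-0.40 ± 0.10), a factor of supercomplex assembly, Atp5g1 (9.76, 9.79 and 9.95 against 9.02, 9.80 and 8.92; adjusted p = 0.033) and Atpif1 (-0.82 ± 0.16), the inhibitor of the ATP synthase. Cold array 2 overlapped the controls for Atp5g1, and all 4 of these calls were lost with the Gapdh covariate. For Atpif1 1 of 3 probe sets rose.

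Most genes of the machinery that builds the chain rose too, beside 17.1% of all genes. Assembly factors rose in 36 of 45 tested (median 0.66, 1 fell) and 24 rose with the Gapdh covariate; with arrays centred on the spike-ins 7 rose and 9 fell (median 0.028). Uqcc1 read 7.94, 6.94 and 6.72 in control and 9.89, 9.66 and 10.17 in cold, Foxred1, a complex I assembly factor, rose by 1.52 ± 0.09 and Atpaf2, which assembles the ATP synthase, by 1.70 ± 0.13. Mitochondrial ribosomal proteins rose in 65 of 76 tested and none fell, with a median of 0.63; 39 rose with the Gapdh covariate, and with arrays centred on the spike-ins the median was -0.0021, with 17 up and 12 down. Mrps36 read 8.73, 8.39 and 8.63 against 10.12, 10.14 and 10.12, and Mrps2 rose by 1.24 ± 0.08. Import proteins rose in 28 of 36 (median 0.64, 1 fell), among them Mtx2 (1.39 ± 0.09) of the outer membrane and Timm44 (1.41 ± 0.11), which tethers the import motor. With the Gapdh covariate 20 import genes rose, without control arrays 2 and 3 19, and with arrays centred on the spike-ins 7 rose and 9 fell (median 0.0095).
Coenzyme Q synthesis rose in 11 of 12 (median 1.12, none fell): Coq9 read 10.21, 9.98 and 9.98 against 11.87, 11.73 and 11.93, and Coq8a 8.88, 8.18 and 8.20 against 11.32, 11.20 and 11.45. Every cold reading of both lay more than 1 log2 unit above every control.

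Other mitochondrial groups differed in the share of members that rose. Of 38 Slc25 carriers 17 rose (44.7%) and 4 fell (10.5%), beside 17.1% and 30.5% of all genes. Their median was 0.23, and -0.39 with arrays centred on the spike-ins. Slc25a17, a peroxisomal member of the family, rose by 1.80 ± 0.13 and Slc25a20 is given above. Slc25a24, which moves ATP and phosphate, fell from 9.28, 9.67 and 9.57 to 8.34, 8.19 and 8.16, and Slc25a12, the aspartate-glutamate carrier, fell by 0.85 ± 0.19. Of 25 genes of mitochondrial DNA maintenance 8 rose (32%) and 4 fell (16%), beside 17.1% and 30.5% of all genes. Their median was 0.09, and -0.53 with arrays centred on the spike-ins. Polrmt, the mitochondrial RNA polymerase, and Tfb2m, its initiation factor, rose by 0.79 ± 0.12 and 1.24 ± 0.17. Rrm2b, which supplies nucleotides for mitochondrial DNA, fell by 0.73 ± 0.11 on its brightest probe set, the only 1 of 4 that was called, and its mean over all 4 gave 0.04; Mterf3, a repressor of transcription, fell by 0.42 ± 0.09.
Dynamics and mitophagy genes rose in 20 of 29 (69%) and fell in 1 (3.45%), beside 17.1% and 30.5% of all genes. Their median was 0.58, and -0.05 with arrays centred on the spike-ins. Apoo, a cristae protein of the MICOS complex, read 9.77, 9.55 and 9.55 in control and 11.39, 11.21 and 11.34 in cold, Mtfp1, which promotes fission, rose by 1.74 ± 0.14, and Bnip3, a mitophagy receptor, was the member that fell (-0.39 ± 0.09). The calls of Slc25a12, Mterf3 and Bnip3 were lost with the Gapdh covariate.

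**Figure D3:**
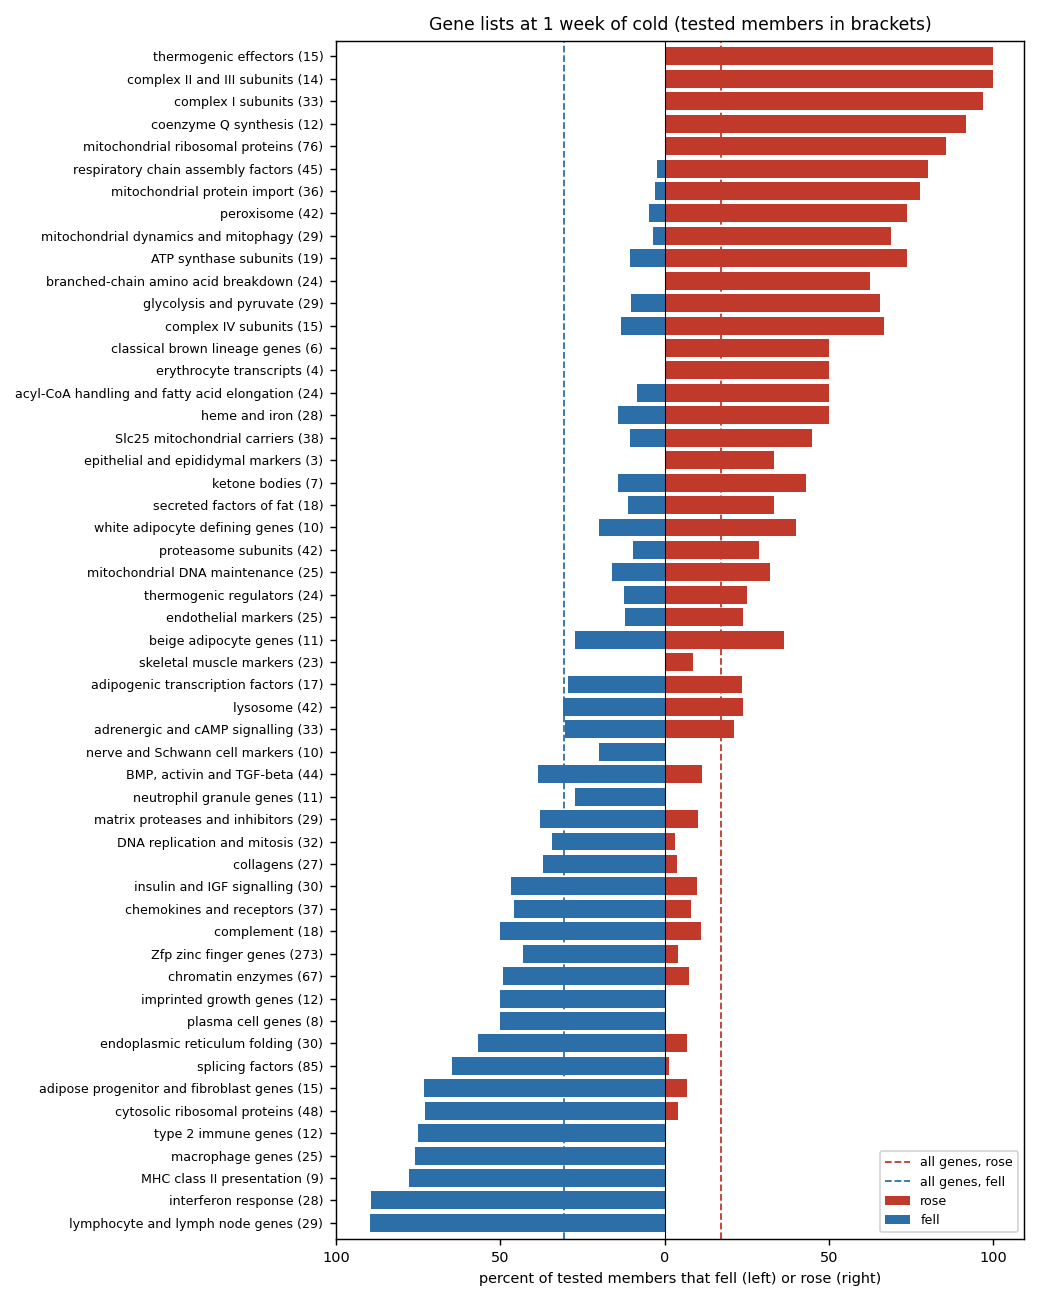
Share of the tested members of each gene list that rose (bars to the right) or fell (bars to the left) at 1 week, in percent, with the number tested in brackets; dashed lines give the same shares over all 12855 genes, 17.1% and 30.5%. Thermogenic effectors and complexes II and III reach 100% on the right, and lymphocyte and interferon lists lie at the left end.

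Many genes that prepare fuel for the mitochondria rose, against a background of 17.1% of all genes up and 30.5% down. Peroxisomal genes rose in 31 of 42 tested (median 0.78, 2 fell; 24 rose with the Gapdh covariate and 22 without control arrays 2 and 3), with Acaa1b, a thiolase, at 9.27, 8.995 and 8.79 in control and 10.94, 11.19 and 11.18 in cold, Decr2, a dienoyl-CoA reductase, at 2.07 ± 0.14 and Hacl1, of alpha-oxidation, at 1.61 ± 0.11. Abcd2 (-0.47 ± 0.11), a transporter of very long chains, and Far1 (-0.87 ± 0.19), of ether lipid synthesis, fell. Branched-chain amino acid breakdown rose in 15 of 24 and fell in none (median 0.62, and -0.0046 with arrays centred on the spike-ins). Mcee, methylmalonyl-CoA epimerase, read 9.27, 9.07 and 9.23 against 11.11, 11.02 and 11.15, Pcca, of propionyl-CoA carboxylase, rose by 1.43 ± 0.10, Dld, the shared dihydrolipoamide dehydrogenase, by 1.39 ± 0.12 and Bckdhb by 0.98 ± 0.09. Cold and control readings of Mcee were separated by more than 1 log2 unit.

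Glycolysis and pyruvate genes rose in 19 of 29 (65.5%) and fell in 3 (10.3%), beside 17.1% and 30.5% of all genes (median 1.01). Pdk4, the kinase that shuts pyruvate dehydrogenase, read 10.17, 9.40 and 10.13 in control and 13.26, 13.05 and 12.92 in cold (3.18 ± 0.19, adjusted p = 2.4e-06), while Dlat, a core of the enzyme it inhibits, rose by 2.25 ± 0.16. Ldhb read 9.40, 9.02 and 9.09 against 11.55, 11.48 and 11.61 and rose on all 4 probe sets. Pfkl (2.34 ± 0.22) and Pgk1 (1.72 ± 0.09) also rose, and Pdk3 (-0.61 ± 0.16) was 1 of the 3 that fell. In the acyl-CoA list 12 of 24 rose (50%) and 2 fell (8.33%). Their median was 0.45, and -0.17 with arrays centred on the spike-ins. Acsl5, an acyl-CoA synthetase, read 10.49, 10.59 and 10.65 against 12.70, 12.35 and 12.81. Acot13 rose by 1.21 ± 0.12 and Fabp5 by 0.92 ± 0.10. Elovl1, an elongase of saturated chains, fell by 0.96 ± 0.17. Of 7 ketone body genes 3 rose (42.9%) and 1 fell (14.3%). Slc16a1, the monocarboxylate transporter, read 11.35, 11.51 and 11.29 against 13.03, 12.88 and 13.12. Slc16a7, its relative, fell by 0.57 ± 0.18, a call lost without cold array 2.

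Of 28 heme and iron genes 14 rose (50%) and 4 fell (14.3%), beside 17.1% and 30.5% of all genes. Their median was 0.20, and -0.43 with arrays centred on the spike-ins. Under the Gapdh covariate 8 rose and 2 fell. Tfrc, the transferrin receptor, read 9.58, 10.19 and 10.10 in control and 12.16, 11.42 and 11.91 in cold (1.88 ± 0.19, adjusted p = 4.9e-05). The 3' control probe set of Tfrc, outside the gene test, gave 4.44, 4.87 and 4.75 against 7.72, 6.59 and 8.01, so both probe sets had every cold array above every control. Tfr2 rose by 1.39 ± 0.15 and Urod, of heme synthesis, by 0.98 ± 0.09. Ireb2, the iron-sensing RNA-binding protein that protects Tfrc transcripts, fell from 9.29, 9.46 and 9.52 to 8.62, 7.87 and 8.37, and Steap4, a metalloreductase, fell by 0.74 ± 0.08.

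Of 18 secreted factors of fat 6 rose (33.3%) and 2 fell (11.1%), beside 17.1% and 30.5% of all genes. Kng1, kininogen 1, was below log2 4 on every control and read 7.57, 6.96 and 7.61 in cold, at least 10.4-fold higher with controls set to log2 4 (adjusted p = 4.5e-07). Nrg4, a neuregulin released by brown fat, rose by 1.38 ± 0.10, and Rarres2, chemerin, fell by 0.96 ± 0.13 on its brightest probe set while 1 of its 3 probe sets rose. Fgf21 and Il6 stayed at or below 2.92 and 2.35 on all 6 arrays and were not tested. Insulin and IGF signalling fell in 14 of 30 (46.7%) and rose in 3 (10%), with a median of -0.33. Beside Igf1, Foxo3 fell by 0.76 ± 0.11, and Mtor rose from 9.36, 9.40 and 9.18 to 10.28, 10.23 and 10.31. With the Gapdh covariate 6 fell and 1 rose.

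Adipogenic transcription factors rose in 4 (23.5%) and fell in 5 (29.4%) of 17, near the 17.1% and 30.5% of all genes. Cebpd (-0.96 ± 0.13) and Creb5, a CREB-related factor (6.995, 6.78 and 6.68 against 5.54, 5.59 and 4.53), fell, and Stat5a rose by 0.57 ± 0.11 but turned to -0.06 with arrays centred on the spike-ins. Of 12 imprinted growth genes 6 fell and none rose. Nnat, neuronatin, showed the deepest fall among them, from 13.78, 13.66 and 13.63 to 11.48, 10.64 and 10.37 (-2.86 ± 0.24, adjusted p = 1.5e-05), with Plagl1 at -1.18 ± 0.14. For Nnat the lowest control was more than 2 log2 units above the highest cold array.

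Genes that make, fold and process proteins and RNA in the rest of the cell went mostly the other way, against a background of 30.5% of genes down. Cytosolic ribosomal proteins fell in 35 of 48 and rose in 2 (median -0.50; 28 fell with the Gapdh covariate). Rps7 read 14.54, 14.73 and 14.72 in control and 13.73, 13.94 and 13.68 in cold, while Rpl39l, a variant member, rose by 0.60 ± 0.13 and turned to -0.03 with arrays centred on the spike-ins. Many ribosomal genes have processed copies that probes may share. Endoplasmic reticulum folding genes fell in 17 of 30 and rose in 2 (median -0.44), and without cold array 2 the counts were 18 and none. Hspa5, the chaperone BiP, read 13.23, 13.34 and 13.14 against 12.38, 12.33 and 12.38, Hsp90b1 fell by 0.92 ± 0.09, and Dnajb9, a cochaperone, rose by 0.26 ± 0.08 in a call lost without cold array 2 and turned to -0.37 with arrays centred on the spike-ins.

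Splicing factors fell in 55 of 85 (64.7%) and rose in 1 (1.18%), beside 30.5% and 17.1% of all genes. Their median was -0.48, and 24 fell with the Gapdh covariate. Snrpg, a core protein of the splicing particles, read 12.59, 12.93 and 12.91 in control and 11.59, 11.83 and 11.55 in cold, and Snrpc was the 1 that rose (0.33 ± 0.08, and -0.30 with arrays centred on the spike-ins). Chromatin enzymes fell in 33 of 67 and rose in 5 (median -0.43; 18 and 3 with the covariate). Sirtuins went opposite ways: Sirt1, the nuclear deacetylase, read 9.36, 9.44 and 9.51 against 8.62, 8.48 and 8.12, and Sirt3, the mitochondrial one, 8.46, 8.01 and 8.09 against 9.64, 9.77 and 9.92. Of 273 Zfp zinc finger genes 118 fell (43.2%) and 11 rose (median -0.37), with 45 and 1 under the Gapdh covariate; Zfp472 fell by 1.95 ± 0.16 and Zfp853 rose by 1.32 ± 0.27.

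Protein breakdown had no common direction. Proteasome subunits rose in 12 (28.6%) and fell in 4 (9.52%) of 42, beside 17.1% and 30.5% of all genes. Their median was 0.16, and -0.46 with arrays centred on the spike-ins. Psmb5, a constitutive catalytic subunit, rose from 11.03, 10.74 and 10.79 to 11.86, 12.13 and 12.02, whereas Psmb8 and Psmb9, catalytic subunits of the immunoproteasome, both fell by 0.87 (SE 0.15 and 0.17). Of 42 lysosomal genes 10 rose (23.8%) and 13 fell (31.0%), near the shares of all genes, with a median of -0.07 that turned to 0.09 with median-centred arrays. Lipa, acid lipase, rose by 0.88 ± 0.12, and Ctss, a cathepsin of antigen-presenting cells, fell by 1.10 ± 0.14.

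The progenitor and stromal lists fell in part. Adipose progenitor and fibroblast genes fell in 11 of 15 and rose in 1 (median -0.55; 5 fell with the Gapdh covariate). Fap read 9.54, 9.46 and 9.26 in control and 8.36, 8.22 and 8.24 in cold, and Dcn, decorin, fell by 0.64 ± 0.10. Collagens fell in 10 of 27 and rose in 1 (median -0.18), a falling share of 37.0% near the background of 30.5%. Col15a1, of basement membranes in fat, read 9.89, 9.74 and 9.75 against 8.74, 8.67 and 8.62, Col1a2 fell by 0.79 ± 0.11, and Col27a1 rose by 0.71 ± 0.19. Matrix proteases and their inhibitors fell in 11 (37.9%) and rose in 3 of 29, also near the background, with Mmp3 at -0.97 ± 0.11 and Mmp19 at 5.53, 4.68 and 4.06 against 6.45, 6.17 and 7.43. BMP, activin and TGF-beta genes fell in 17 (38.6%) and rose in 5 of 44, likewise near it (14 and 2 without cold array 2; 7 and 1 with the covariate). Fst, follistatin, which traps activins, fell by 1.10 ± 0.16, Bmpr1a, a BMP receptor, by 0.79 ± 0.11 on the brightest of 4 falling probe sets, and Ltbp2 rose by 0.90 ± 0.17.

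DNA replication and mitosis genes fell in 11 of 32 and rose in 1 (median -0.45), a share of 34.4% beside 30.5% of all genes; 2 fell with the Gapdh covariate and 15 without cold array 2. Mki67, a protein of dividing cells, read 7.73, 7.70 and 8.48 in control and 6.94, 6.82 and 7.03 in cold, and Mcm5, of the replicative helicase, fell by 1.15 ± 0.20; both calls were lost with the covariate. Ccne1, cyclin E1, was the member that rose (0.95 ± 0.25).

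Genes of immune cells fell in most of their lists, against a background of 30.5% of all genes down and 17.1% up. Of 25 macrophage genes 19 fell and none rose (median -0.79; 14 fell with the Gapdh covariate). Laptm5, a lysosomal protein of blood cells, read 12.56, 12.75 and 12.72 in control and 11.71, 11.80 and 11.52 in cold, and Mrc1, the mannose receptor, fell by 0.99 ± 0.12. Type 2 immune genes fell in 9 of 12 (median -0.86). Il33, the alarmin made by stromal cells, read 8.22, 8.61 and 8.37 against 6.62, 6.93 and 6.23, and Retnla fell by 0.91 ± 0.10. Class II presentation genes fell in 7 of 9 (median -0.74), with H2-Ab1 at 12.86, 12.94 and 13.26 against 12.19, 12.47 and 12.13. Each of these sets of readings separated the groups, which the naming by small adjusted p also favours.

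Complement genes fell in 9 (50%) and rose in 2 (11.1%) of 18, beside 30.5% and 17.1% of all genes. Clu, clusterin, fell by 1.06 ± 0.11 on the brightest of 4 falling probe sets. Cd59a, which protects cells from complement, rose by 0.70 ± 0.15. Lymphocyte and lymph node genes fell in 26 of 29 and rose in none (median -0.88), and 11 fell with the Gapdh covariate and 7 without control arrays 2 and 3. Il7r read 9.30, 10.02 and 10.07 in control and 8.17, 8.25 and 8.27 in cold, Cd4 fell by 0.90 ± 0.11 and Cxcl13, a chemokine of B cell follicles, by 1.02 ± 0.11. For Il7r, control arrays 2 and 3 were the highest. Of 8 plasma cell genes 4 fell (1 with the Gapdh covariate and 1 without control arrays 2 and 3), with Ighm falling on 2 of its 8 probe sets and rising on 1. Chemokines and receptors fell in 17 (45.9%) and rose in 3 (8.11%) of 37, and in 10 and none with the Gapdh covariate. Their median was -0.40, and -0.42 without control arrays 2 and 3. Ccl5 fell by 1.17 ± 0.16. Cxcl12, which holds progenitors and lymphocytes in tissue, fell by 1.22 ± 0.10 on its brighter probe set and rose by 0.43 on the other.
Interferon response genes fell in 25 of 28 and rose in none (median -0.89), and 13 fell with the Gapdh covariate. Gbp3 read 9.76, 9.62 and 10.27 against 8.67, 8.64 and 8.82, and Oasl2 fell by 1.20 ± 0.16. Neutrophil granule genes fell in 3 of 11 (27.3%, beside 30.5% of all genes); S100a9, calgranulin B, read 8.65, 7.43 and 8.27 against 5.71, 5.62 and 5.77, a gap of more than 1 log2 unit.

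**Figure D4:**
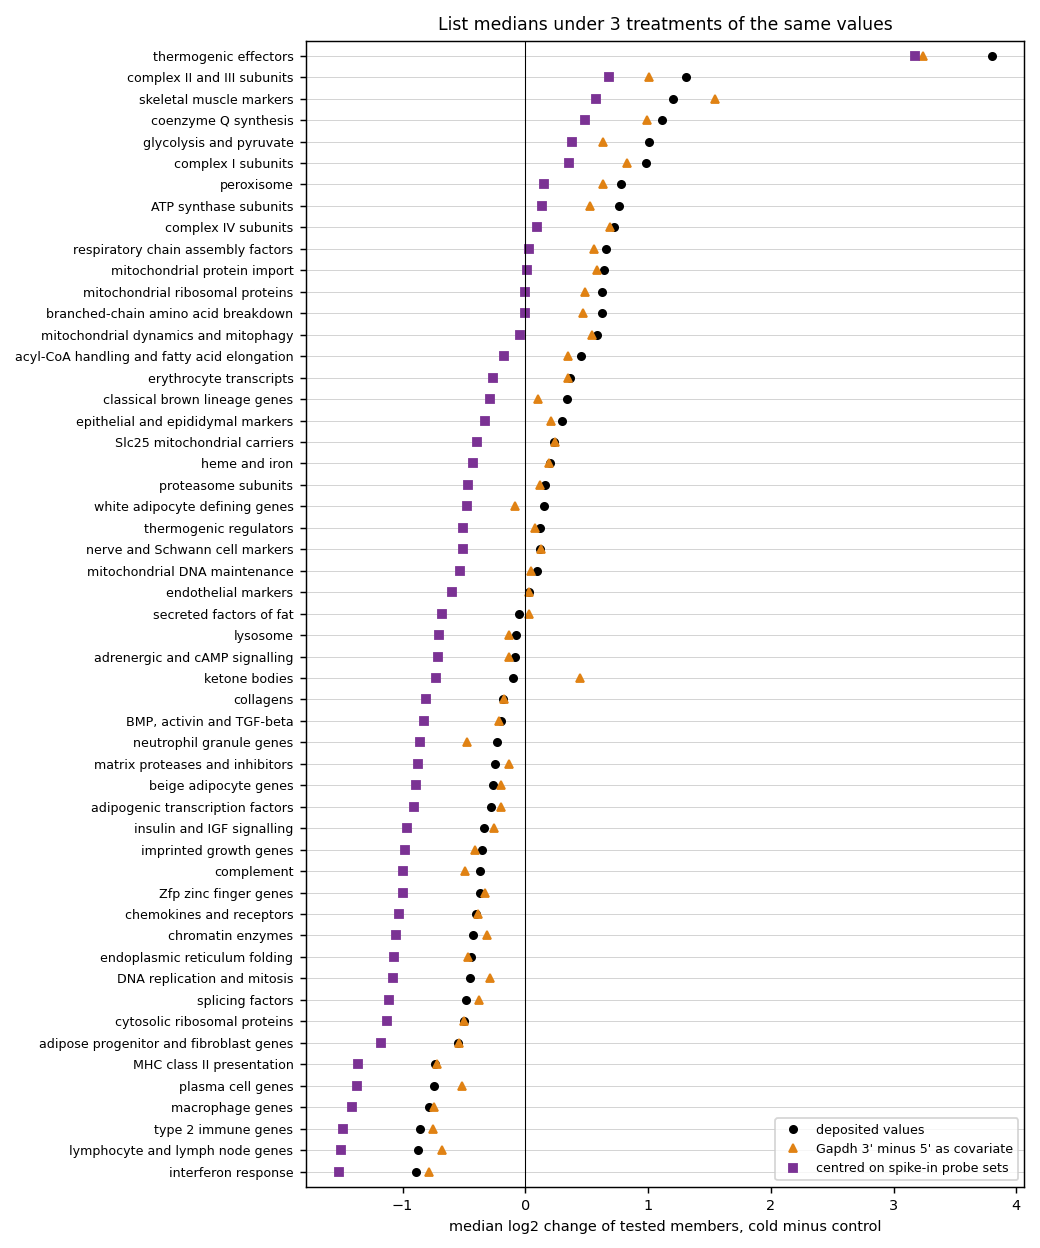
Median log2 change (cold minus control) of the tested members of each list as deposited (circles), with the Gapdh 3' minus 5' difference as a covariate (triangles) and with arrays centred on the spike-in probe sets (squares). Thermogenic effectors stay above 3 in all 3, macrophage, lymphocyte and interferon medians stay below 0, and mitochondrial ribosomal proteins move from 0.63 to -0.0021 with the spike-in centring.

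Among markers of other cells that the tissue could hold, 2 of 23 tested muscle genes rose (8.7%) and none fell. Of all genes 17.1% rose and 30.5% fell. The muscle median was 1.20, with 9.01 as the mean of cold array 2. Acta1, skeletal actin, read 7.63, 7.20 and 6.88 in control and 5.97, 13.34 and 6.58 in cold. Ckm, muscle creatine kinase, read 5.31, 5.26 and 5.30 against 5.28, 11.62 and 5.30, and Pvalb, a calcium buffer of fast fibres, 4.49, 4.71 and 4.70 against 4.74, 10.88 and 4.40. Only cold array 2 was high in these 3 genes, and none was called. Without it Acta1 changed by -0.96 and Tnnc2 by -1.21, and 6 muscle genes fell and 2 rose. Myh1, a fast myosin, was high on control array 2 as well (2.80, 6.56 and 2.81 against 2.93, 7.69 and 2.99). Mb (5.56, 5.58 and 5.57 against 5.96, 7.002 and 6.41) and Myl1 (10.13, 9.73 and 9.97 against 10.81, 12.25 and 10.96) were the 2 that rose, and both were higher on all cold arrays. All 15 thermogenic effectors and the same 32 complex I subunits were still called up without cold array 2.

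**Figure D5:**
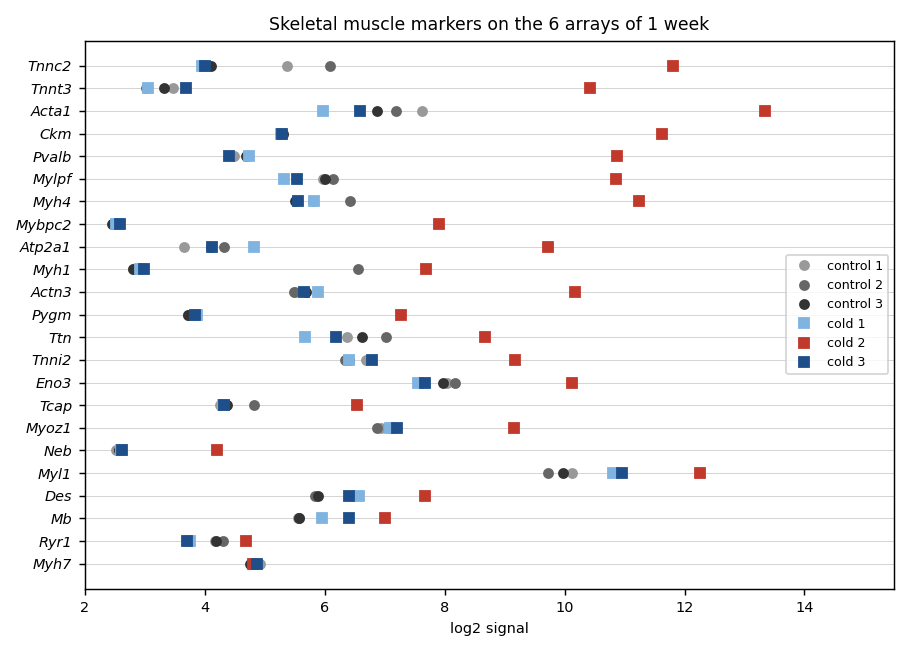
Log2 signals of the 23 tested skeletal muscle markers on the 6 arrays of 1 week; circles are control arrays and squares cold arrays, with cold array 2 in red. For most genes cold array 2 lies to the right of all others, and for Myh1 control array 2 lies beside it.

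Endothelial markers rose in 6 (24%) and fell in 3 (12%) of 25, beside 17.1% and 30.5% of all genes. Their median was 0.03, and -0.60 with arrays centred on the spike-ins. With the Gapdh covariate 2 rose, and without control arrays 2 and 3 the median was -0.06. Plvap, of fenestrated capillaries, read 8.38, 7.84 and 7.70 in control and 9.31, 8.93 and 9.54 in cold, while Tek, the angiopoietin receptor, fell by 0.72 ± 0.13 and Lyve1, a marker of lymphatic vessels and some macrophages, by 0.79 ± 0.11. Of 10 nerve and Schwann cell markers 2 fell (20%, beside 30.5% of all genes). They were Scn7a, a sodium channel (11.44, 11.68 and 11.29 against 10.50, 10.08 and 9.71), and Pmp22, a myelin protein (-0.52 ± 0.12). Of 4 erythrocyte transcripts 2 rose (Alas2 by 0.91 ± 0.18), and of 3 epithelial markers 1, Epcam, by 0.30 ± 0.09; Epcam turned to -0.33 with arrays centred on the spike-ins, and both Alas2 and Epcam lost their call with the Gapdh covariate.

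The spread within a group was widest for a few genes. In control the widest ranges were those of Slc15a2, a peptide transporter (7.21, 8.17 and 3.80 against 5.90, 8.45 and 6.46 in cold), Myh1, Igkv6-20, an antibody segment (6.63, 5.11 and 7.78 against 5.20, 6.29 and 5.00), Tmem120a (9.76, 8.26 and 7.16 against 10.71, 10.05 and 10.52) and Otop1. Of these, Tmem120a and Otop1 rose, and the call of Tmem120a (2.03 ± 0.59, adjusted p = 0.016) was lost with the Gapdh covariate, at 0.20. In cold the widest ranges were all muscle genes of array 2.

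Probe sets that name no gene were called in 1308 of 3484 (37.5%), 399 up and 909 down, and those that name several genes in 369 of 648 (56.9%).

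The change at 1 week differed from that at 5 weeks in 2391 of 12855 genes (18.6%, interaction term in limma): 1004 had the larger value at 1 week (7.81%) and 1387 at 5 weeks (10.8%). Arrays of 5 weeks carried their own differences, with muscle means of 7.38 to 7.61 in control and 4.90 to 5.11 in cold. Gapdh 3' to 5' differences there were -0.08 to 0.03 in control and 0.19 to 3.01 in cold. Those of Actb were 1.04 to 1.16 and 1.84 to 2.80, and those of Pcx 4.05 to 4.92 and 6.30 to 6.92. Those of Tfrc overlapped (1.82 to 2.06 and 1.78 to 2.26). The Gapdh and Actb differences did not overlap between the 5 week groups, so as covariates they are confounded with cold at that time. With the Gapdh covariate 3 genes kept an interaction call (1283 at an unadjusted p under 0.05), with that of Actb 0 (929), and without control arrays 2 and 3 of 1 week 124 (2722). The values below hold for the deposited scale and the plain model. Mitochondrial ribosomal proteins were larger at 1 week in 26 of 76 and larger at 5 weeks in 1, and their median was 0.26 at 5 weeks. Complexes II and III were larger at 1 week in 7 of 14 and complex I in 10 of 33, with none of either larger at 5 weeks.

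Among thermogenic effectors Ucp1 changed by 7.65 at 1 week and 7.71 at 5 weeks (interaction adjusted p = 0.96), Cox8b and Clstn3 changed less at 5 weeks (3.42 and 1.86; 3.82 and 2.38), and S100b and Slc27a2 more (3.79 and 5.22; 3.55 and 5.34). Uqcc1 changed by 2.71 and 0.15 (interaction adjusted p = 0.0097), Decr2 by 2.07 and 0.57 (0.0033), and Lipe by 1.60 and -0.60 (0.014). Zfp genes were larger at 5 weeks, that is less low, in 48 of 273, and chromatin enzymes in 20 of 67. Vav3, Fyb and Cd28 fell at 1 week and changed by -0.17, -0.46 and -0.20 at 5 weeks (interaction adjusted p = 0.0041, 0.0064 and 0.013). Plvap rose at 1 week and changed by -1.25 at 5 weeks (0.0016).

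The greatest differences toward 5 weeks were those of Kcnq1ot1, an imprinted antisense RNA (-1.44 at 1 week and 1.28 at 5 weeks), Ackr4, a chemokine scavenger (-0.54 and 2.18), Zfp119b (-2.14 and 0.18), Cdh19, a cadherin of Schwann cells (-1.12 and 1.17), and Adgrg2, an adhesion receptor (-2.08 and 0.21). Kcnq1ot1 and Cdh19 were lowest on cold array 2 at 1 week (6.77 beside 9.06 and 9.03; 3.48 beside 5.93 and 5.63). The array does not mark by itself which strand a probe set of an antisense RNA reads. Toward 1 week the greatest were the muscle genes Myh1, Acta1, Tnnc2 and Tnnt3, whose values follow cold array 2 and the 5 week controls.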

How the data were processed

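RNA of 12 samples was read on Affymetrix arrays. The authors deposited 1 table of log2 signals, made with GCRMA per the submitters' processing notes (background correction, normalization, probe summary), whose version and options no source used here gives. Of 45101 probe sets, 64 controls were left out of tests, and 26510 exceeded log2 4 on at least 3 of 12 arrays. Gene symbols came from the platform annotation, updated by gene identifier (34754 of 34958 single-gene probe sets).

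The model was limma 3.58.1 under R 4.3.3, with lmFit and eBayes on 4 group means over 12 arrays and 2-sided tests. Adjustment was by Benjamini-Hochberg over all probe sets tested. The number of arrays limits the precision. The test was checked on simulated data. A fold against a group below log2 4 on all arrays is a lower bound with those signals set to 4.

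Genes were drawn for naming by rule. The first were those with the widest gaps between groups and all probe sets called 1 way. From each list came up to 4 called members of smallest adjusted p and 2 that went against it. Every tested thermogenic, white, brown lineage and muscle gene was drawn too. So were the 5 widest ranges in each group and the 5 greatest interaction differences each way. The text names only some of the genes drawn, and those left out include regulators and muscle genes that were not called. Ndufa10, Ndufb2, Sdhd and the listed genes below the filter are additions to the rule, some chosen after their values were seen. Members and lists were chosen with earlier results of these data known. Lists were described by counts and medians, without a set test. Alternatives were other filters, scalings, covariates, a replicate block and left-out arrays; spike-in centring was chosen after seeing the data.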

Additional observations from a re-analysis of the deposited data

Results flagged for a closer look

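Control probe sets, which the gene tests leave out, differed between the groups of 1 week. The cold mean exceeded the control mean by 1.46 log2 units for the 3' and 3.74 for the 5' probe set of Gapdh, by 2.75 and 2.11 for those of Tfrc and by 2.69 for the 5' probe set of Pcx. The added transcripts stood higher in cold by 0.77 (BioB), 0.71 (BioC), 0.57 (BioD) and 0.38 (Cre). The part of these differences in the gene results was not tested.

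For the genes below the change at 5 weeks differed from that at 1 week by the interaction term in limma (adjusted p under 0.05), and the value in brackets is the change at 5 weeks minus that at 1 week, on the log2 scale. Most of these calls are lost with the covariates, as stated in the report.

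Larger at 1 week were, among thermogenic and adipocyte genes, Cox8b (-1.55), Clstn3 (-1.44), Slc2a4 (-1.30), Lipe (-2.20), Esrra (-1.10), Oplah (-2.17), Ebf3 (-0.56), Slc27a1 (-0.70), Kng1 (-0.87), Nrg4 (-0.59) and Tmem120a (-3.48). Mitochondrial and fuel genes with the larger value at 1 week were Sdhb (-0.43), Uqcrq (-0.58), Atp5o (-0.56), Atpaf2 (-1.09), Uqcc1 (-2.56), Slc25a17 (-1.004), Letm1 (-0.82), Decr2 (-1.51), Mcee (-1.17), Bckdhb (-0.57) and Pgk1 (-0.47). Others were Tfrc (-1.28), Tfr2 (-0.90), Psmb5 (-0.87), Snrpc (-0.50), Mmp19 (-1.76) and Plvap (-2.54). Muscle genes showed the widest differences, with Acta1 (-7.94), Tnnt3 (-7.19), Tnnc2 (-7.38), Myh1 (-8.30), Mb (-3.12) and Myl1 (-1.79).

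More positive at 5 weeks were the thermogenic and fuel genes S100b (1.42), Slc27a2 (1.78), Pdk4 (0.97) and Polrmt (0.55). Genes that fell at 1 week and were less low or higher at 5 weeks included, among signalling and transcription genes, Foxo1 (0.58), Klhl13 (0.59), Pde4b (0.70), Gnai3 (0.55), Igf1 (0.99), Foxo3 (0.57), Creb5 (1.31), Sirt1 (0.92), Zfp472 (1.51), Fst (0.89) and Bmpr1a (0.66). In the mitochondrial, iron, folding and ribosomal lists they were Slc25a24 (0.60), Rrm2b (0.74), Mterf3 (0.48), Bnip3 (0.44), Abcd2 (0.54), Ireb2 (0.96), Hspa5 (0.50) and Rps7 (0.45). In stromal, immune and nerve lists they were Fap (0.65), Mrc1 (0.64), C2 (0.66), S100a9 (1.23), Il7r (0.92), Gbp3 (1.05), Cd28 (1.67), Fyb (1.32), Vav3 (1.63) and Scn7a (1.07). The greatest differences of this sign were those of Adgrg2 (2.28), Cdh19 (2.30), Zfp119b (2.33), Kcnq1ot1 (2.73) and Ackr4 (2.72). The change of Ackr4 at 1 week was not called.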

How the results depend on the processing

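Of the 179 called genes named here, 173 to 177 kept direction and call without any 1 array, 175 with the replicate block, 175 after quantile normalization, 173 with median-centred arrays, 174 with only the 6 arrays in the fit, 138 with the Gapdh covariate, 134 without control arrays 2 and 3, and 157 with spike-in centring. Many of the 179 were named for a small adjusted p or a wide gap in these same data, which favours keeping a call. Over all genes, 973 of 2194 rises and 1577 of 3921 falls kept theirs with the Gapdh covariate. With only the 6 arrays in the fit, 1647 of these rises and 3022 of these falls did. Replicate numbers did not pair the arrays (same-number correlations 0.0052, -0.042 and -0.092). The replicate block called 10766 probe sets, 5532 genes and 1619 interaction genes.

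The Gapdh covariate gave 4893 probe sets, 2661 genes and 3 interaction genes; the Actb covariate left 0 interaction genes in limma (929 at an unadjusted p under 0.05). Without control arrays 2 and 3 there were 4555, 2480 and 124, and spike-in centring gave 20126 probe sets, 10095 genes and a rising share of 5.27%. That share was 60.9% with median-centred arrays. Leaving out 1 array gave 9479 to 11644 probe sets, 5005 to 6083 genes, a rising share of 36.8% to 38.9% and 1314 (without control array 2) to 2816 interaction genes, against 2391. Why the covariates changed the counts was not tested; they moved the median SE of the interaction from 0.19 to 0.27 (Gapdh) and 0.31 (Actb).

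With spike-in centring the medians of these lists turned: white adipocyte -0.48, endothelial -0.60, thermogenic regulators -0.50, classical brown -0.29, acyl-CoA -0.17, branched-chain amino acids -0.0046, mitochondrial ribosome -0.0021, Slc25 -0.39, mitochondrial DNA -0.53, dynamics -0.046, heme and iron -0.43, proteasome -0.46, epithelial -0.33, erythrocyte -0.26 and nerve -0.51. So did Fabp4 (-0.30), Ebf3 (-0.18), Stat5a (-0.058), Dnajb9 (-0.37), Rpl39l (-0.025), Snrpc (-0.30) and Epcam (-0.33). The adrenergic median turned to 0.041 after quantile normalization, 0.078 with median-centred arrays and 0.044 over all probe sets of a gene, and ranged from -0.11 (without cold array 2) to 0.034 (without control array 1). The lysosome median turned to 0.090 with median-centred arrays and 0.015 over all probe sets, which also turned matrix proteases (0.061), Tle3 (0.31) and Rrm2b (0.042). Leaving out 1 array moved Acta1 between -0.96 and 2.73 and Tnnc2 between -1.21 and 2.72, and both turned without cold array 2. The small medians of ketone bodies, secreted factors and endothelial markers also turned under several other settings, and that of white adipocyte genes with the Gapdh covariate (-0.087) and without control arrays 2 and 3 (-0.0087). The cause was not tested. Dim signals limit what can be read: Dio2 and Kng1 have only a lower bound.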
